A study of Mus musculus with 8 samples.

Results

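Voltage-gated sodium and calcium channel genes were followed in brain microvessels, the small vessels of the brain, of wild type C57BL6 mice after an experimental stroke. The members are protein-coding genes with a deposited log2 fold change whose symbol names a voltage-gated sodium channel alpha or beta subunit (Scn followed by a number and a or b) or begins with Cacna, Cacnb or Cacng. The members described number 38, 12 of the sodium channel family and 26 of the calcium channel family with its gamma relatives, among 31616 genes with a log2 fold change. RNA sequencing covered 8 libraries in 2 groups of 4: sham surgery, and tMCAO (transient middle cerebral artery occlusion), a stroke model in which the main artery of the lateral forebrain is closed for a time and then reopened. Both groups carry the same wild type genotype and strain label, and per the labels' protocols the libraries were made from total RNA without its ribosomal part. The sources used here give neither the ages of the mice nor the times of occlusion and sampling.

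Voltage-gated sodium channels carry the rising phase of the action potential through a large pore-forming alpha subunit, flanked by small beta subunits that tune gating and attach the channel to neighbouring proteins. Voltage-gated calcium channels let calcium in when the membrane is depolarised, which releases transmitter at nerve endings and starts contraction in heart, skeletal and smooth muscle. Their pore subunit, alpha1, is carried to the membrane and tuned by alpha2delta and beta subunits, and most proteins of the gamma family instead regulate AMPA-type glutamate receptors. In brain vessels the L-type calcium channel of smooth muscle sets arterial tone, while most other members are best known from neurons.

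The values are the authors' own results for each gene over the whole comparison, a log2 fold change and a p-value that was read as Benjamini-Hochberg adjusted. Levels per library, the spread between libraries and the sequencing depth were therefore not analysed here, and it is not known how many libraries followed a direction. Each standard error is implied by the fold change and the p-value, and it was 0.17 to 0.39 on the log2 scale for the members, with a median of 0.26. The direction is not named in the table. Values above 0 were taken to mean higher after tMCAO, since the acute injury genes Il6, Lif and Hmox1 had log2 fold changes of 5.92, 5.14 and 3.81 in the authors' deposited table. The labels do not say whether each library is a mouse of its own, so the p-values may measure technical spread.

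Channel genes of both families were lower after tMCAO. Of the 35 members with an adjusted p, 27 fell at an adjusted p under 0.05 and 0 rose, beside 17.6% of all 19294 tested genes called lower and 15.2% called higher by the same rule. At an unadjusted p under 0.05, recovered from the authors' adjusted values, 28 members were lower and 0 higher, beside 21.8% and 20.1% of all tested genes. All 35 tested members had a log2 fold change below 0, as did 9660 of the 19294 tested genes. Their median was -1.05, against -0.0008 over all tested genes. A fall to at most -1 on the log2 scale together with an adjusted p under 0.05 was found for 18 members, beside 4.94% of all tested genes. Other call rules gave like counts. At an adjusted p under 0.01 the members that fell numbered 23 (12.1% of all tested genes), at one under 0.1 they numbered 27 (21.0%), and with the deposited p read as unadjusted they numbered 24 (12.4%). The calls lost under that reading were Cacna1h, Cacnb2 and Cacng7. With the best measured genes as the zero point 26 members were called lower (17.1%), all but Cacna1h of the 27, and with the smooth muscle markers as the zero point 31 (35.4%). These counts cover only the members with an adjusted p. The other members, Scn4a, Scn11a and Cacng1, had a log2 fold change alone. In a tissue sample of many cell types, fewer cells of a type and less RNA per cell cannot be told apart.

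**Figure D1:**
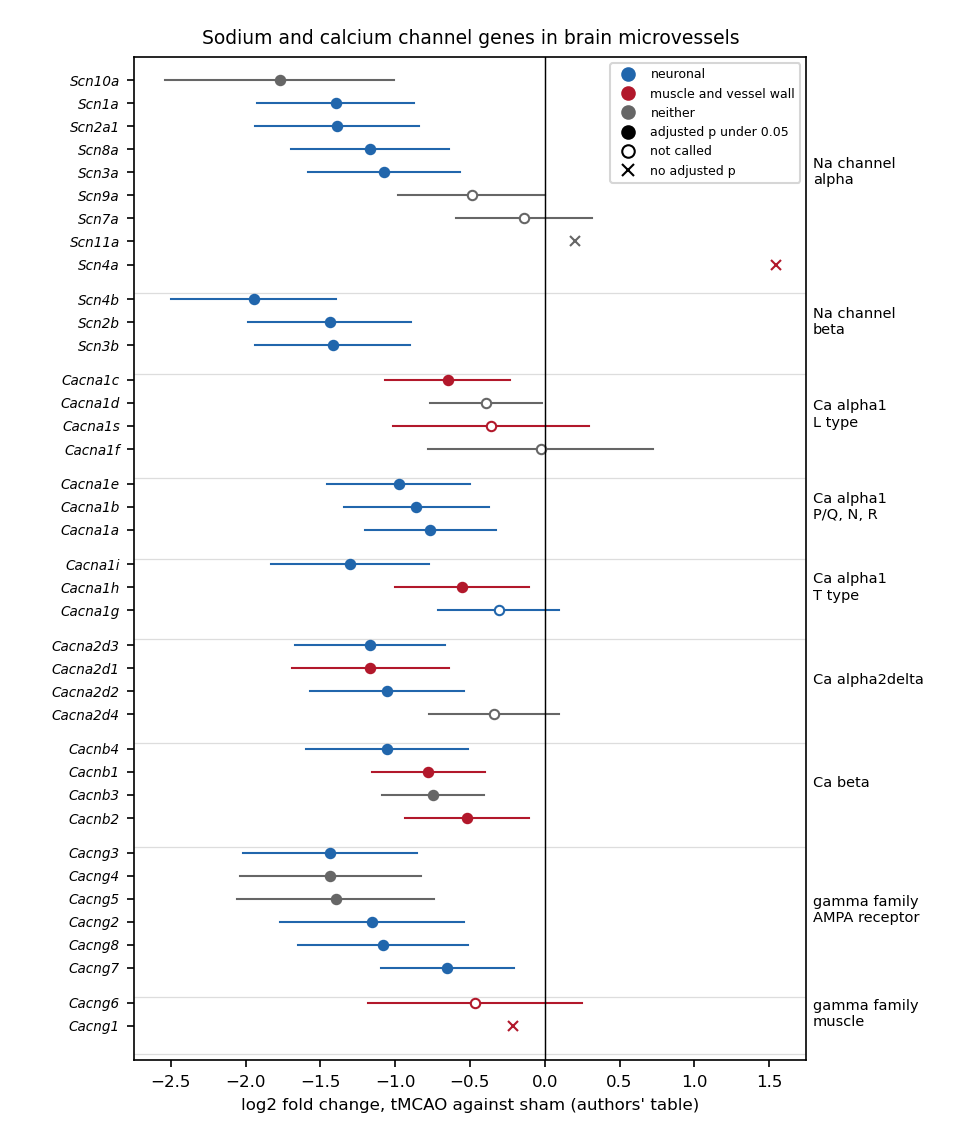
Log2 fold change of tMCAO against sham for the 38 members, grouped by the part each plays in the channel. Points are the authors' values, bars are 95% intervals from the implied standard errors, filled points passed an adjusted p of 0.05, open points did not, and crosses have no adjusted p; the 35 points with an interval all lie below 0 and Scn4a is the highest cross.

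The sodium channel alpha subunits of central neurons fell together. Scn1a, the main sodium channel gene of fast-spiking inhibitory neurons, stood 2.63-fold below sham in the authors' deposited table (-1.40 on the log2 scale, standard error 0.27, adjusted p = 6.19e-06). Scn2a1, the gene now named Scn2a, which serves the axons of excitatory neurons, had almost the same value at -1.39 (adjusted p = 1.84e-05) in the authors' deposited table. Scn8a, the channel of the axon initial segment and of nodes of Ranvier, lay at -1.17 on the log2 scale (adjusted p = 0.000206). Scn3a, which is strongest in the embryonic brain, stood at -1.07 (adjusted p = 0.000395) in the same table.

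The alpha subunits of sensory neurons, glia and skeletal muscle that were described did not follow a common course. Scn10a, known from pain-sensing neurons, was 3.42-fold lower (-1.77 on the log2 scale, adjusted p = 0.0001) in the authors' deposited table, and its implied standard error of 0.39 was the largest among the members. Scn9a, another channel of sensory and sympathetic neurons, was not called, at -0.49 with a 95% interval from -0.98 to 0.004 (adjusted p = 0.12) in the authors' deposited table. Scn7a, whose product senses the sodium level in glia of the regions that control salt intake, had a log2 fold change of -0.14 with a 95% interval from -0.59 to 0.32 (adjusted p = 0.69). Scn4a, the skeletal muscle channel, had the highest value of the 38 members, a log2 fold change of 1.54, and Scn11a, also of sensory neurons, one of 0.20 in the authors' deposited table. Neither has an adjusted p, so whether they differ from 0 was not tested. Fold changes without a p are given for 12322 genes, and as many as 440 of those genes share a single value. How many reads such values rest on was not analysed here.

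The sodium channel beta subunit genes Scn2b, Scn3b and Scn4b fell. Scn4b, whose product is abundant in striatal projection neurons and promotes resurgent sodium current, stood 3.85-fold below sham in the authors' deposited table (-1.94 on the log2 scale, standard error 0.28, adjusted p = 7.13e-10), the lowest value of any member. Scn2b and Scn3b stood at -1.44 (adjusted p = 7.95e-06) and -1.42 (adjusted p = 3.31e-06) in the authors' deposited table. The median of the sodium channel members was -1.39 over 10 tested genes, and 8 of them fell, beside 17.6% of all tested genes called lower.

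The calcium channel pore genes had a median log2 fold change of -0.86 for the P/Q, N and R types, -0.55 for the T type and -0.37 for the L type, beside -1.17 for the sodium channel alpha subunits, and the differences between these groups were not tested. The P/Q-type gene Cacna1a, the N-type gene Cacna1b and the R-type gene Cacna1e, which together supply the calcium that releases transmitter, had log2 fold changes of -0.77 (adjusted p = 0.0037), -0.86 (adjusted p = 0.0031) and -0.98 (adjusted p = 0.000594) in the authors' deposited table. Of the low-voltage T-type genes, Cacna1i, found mainly in the brain, was 2.47-fold lower than in sham in the authors' deposited table (-1.30 on the log2 scale, standard error 0.27, adjusted p = 3.2e-05). Cacna1h, a T-type gene that is also expressed in arteries, passed narrowly, at -0.55 (adjusted p = 0.048). Cacna1g, the T-type gene of thalamic relay neurons, did not pass, at -0.31 with a 95% interval from -0.71 to 0.10 (adjusted p = 0.26) in the authors' deposited table.

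Of the 4 L-type genes, Cacna1c was called lower and the others were not, and the differences among them were not tested. The share called lower over all tested genes was 17.6%. Cacna1c, the channel of heart and arterial smooth muscle and the main L-type channel of brain neurons, stood 1.57-fold below sham in the authors' deposited table (-0.65 on the log2 scale, standard error 0.21, 95% interval from -1.07 to -0.23, adjusted p = 0.011). Its call ended once the trend with gene length was subtracted, at -0.13 (adjusted p = 0.69). Cacna1d, found in neurons, endocrine cells and the sinoatrial node, lay at -0.39 on the log2 scale with a 95% interval from -0.76 to -0.017 (adjusted p = 0.10). That interval is not adjusted for the number of genes. Cacna1d was lower at the recovered unadjusted p under 0.05, as were 21.8% of all tested genes. The skeletal muscle gene Cacna1s lay at -0.36 with a 95% interval from -1.01 to 0.30 (adjusted p = 0.43) in the authors' deposited table. Exons of an antisense gene, Gm37759, cover 20.0% of the exonic length of Cacna1s, and the sources used here do not state whether counting used strand. The retinal gene Cacna1f stood at -0.03 with a 95% interval from -0.78 to 0.72 (adjusted p = 0.97) in the authors' deposited table.

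Of the accessory calcium channel subunits, 7 of 8 fell, beside 17.6% of all tested genes called lower and 15.2% higher. The alpha2delta genes Cacna2d1, the gabapentin target with roles in muscle and sensory neurons, Cacna2d2 and Cacna2d3 had nearly equal log2 fold changes of -1.17, -1.06 and -1.17 (adjusted p = 0.00018, 0.000579 and 9.36e-05) in the authors' deposited table. The retinal form Cacna2d4 was not called, at -0.34 with a 95% interval from -0.77 to 0.10 (adjusted p = 0.24). All 4 beta subunit genes fell. Cacnb4, the main beta subunit of the cerebellum and other brain regions, stood 2.08-fold below sham in the authors' deposited table (-1.05 on the log2 scale, standard error 0.28, adjusted p = 0.0011), although exons of a gene on the opposite strand, A430018G15Rik, cover 16% of its exonic length. Cacnb1, the skeletal muscle form, stood at -0.78 (adjusted p = 0.000544) and Cacnb3, shared by neurons and smooth muscle, at -0.75 (adjusted p = 0.000253). Cacnb2, the form of heart muscle, had the smallest fall of the beta subunits and passed narrowly, at -0.52 (adjusted p = 0.044) in the authors' deposited table.

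All 6 gamma family genes whose products regulate AMPA receptors fell, beside 17.6% of all tested genes called lower. Cacng3, a regulator in the cortex, stood 2.70-fold below sham in the authors' deposited table (-1.44 on the log2 scale, standard error 0.30, adjusted p = 3.36e-05). Cacng4 and Cacng5, which are found in glia as well as in neurons, stood at -1.43 (adjusted p = 6.27e-05) and -1.40 (adjusted p = 0.000358) in the authors' deposited table. Cacng2, which encodes stargazin, lay at -1.15 on the log2 scale (adjusted p = 0.0017), and Cacng8, the main hippocampal form, at -1.08 (adjusted p = 0.0014). Cacng7 had the smallest fall of these genes, -0.65 (adjusted p = 0.016). Neither gamma subunit of the skeletal muscle channel group was called: Cacng6 stood at -0.46 with a 95% interval from -1.18 to 0.25 (adjusted p = 0.34), and Cacng1, without an adjusted p, at -0.21 in the authors' deposited table.

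Neuronal subunits were set beside those of muscle and vessel wall, sorted by where each is best known to act. Of the 19 neuronal members, all of them tested, 18 fell, at a median of -1.15 on the log2 scale and over a range from -1.94 for Scn4b to -0.31 for Cacna1g. Of the 7 tested members of muscle and vessel wall, 5 fell, namely Cacna2d1, Cacnb1, Cacna1c, Cacna1h and Cacnb2, with a median of -0.55 and a range from -1.17 to -0.36. That count was 3 after subtraction of the length trend, without Cacna1c and Cacnb2, and 3 with the deposited p read as unadjusted, without Cacna1h and Cacnb2. It was 2 at an adjusted p under 0.01 and 1 where a log2 change of at least 1 in size was asked for. By the same rules in that order, the neuronal members called lower numbered 15, 17, 17 and 14 of 19. The shares of all tested genes called lower by them were 16.4%, 12.4%, 12.1% and 4.94%. The remaining members, of sensory neurons, retina and mixed tissues, fell in 4 of 9 tested genes, Scn10a, Cacng4, Cacng5 and Cacnb3, with a median of -0.49. At an adjusted p under 0.05, 17.6% of all tested genes were called lower and 15.2% higher. The classes overlap in range, and the difference between their medians was not tested, since the classes were drawn up with earlier results of these data known. Members that had been sorted as known in both neurons and muscle were then left out. The medians were -1.16 over 14 neuronal genes and -0.46 over 3 muscle and vessel wall genes. Those 3 were Cacnb1, Cacng6 and Cacna1s, all best known from skeletal muscle, and only Cacnb1 was called lower. Whether these 3 are also expressed in neurons was not examined. The value of -0.46 therefore covers no gene best known from the vessel wall. Several genes of the muscle and vessel wall class, Cacna1c and Cacna2d1 among them, are also expressed in neurons.

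The cell type markers moved in different directions beside these classes. All 14 endothelial, 10 pericyte and 12 smooth muscle markers listed for the vessel wall had an adjusted p, while their levels were not analysed here. Neuron markers fell in 15 of 15 genes, with a median of -1.14 and a range from -1.74 for Slc32a1 to -0.52 for Map2 in the authors' deposited table. Smooth muscle markers had a median of 0.25, from -0.23 for Myl9 to 0.90 for Des, and Des was the single marker of 12 that rose. Pericyte markers had a median of 0.15, with Abcc9 and Kcnj8 higher and Cspg4, which is shared with oligodendrocyte precursors, lower. Endothelial markers rose in 9 of 14 genes, with a median of 0.73, Emcn at 1.14 and Egfl7 at 1.04 among them in the authors' deposited table. Oligodendrocyte precursor markers fell in 6 of 8 genes (median -1.04), oligodendrocyte markers in 6 of 8 (median -0.63) and microglia markers in 4 of 8 (median -0.47), and none of these lists had a member that rose. C1ql1 at -1.46, Cnp at -0.43 and Siglech at -2.46 had the smallest adjusted p of their lists in the authors' deposited table. Astrocyte markers were called in 0 of 8 genes (median -0.10) and skeletal muscle markers in 0 of 5 tested (median -0.15). At an unadjusted p under 0.05, recovered from the authors' values, the counts were 0 and 1, the latter Acta1 at -0.67 (adjusted p = 0.12). Of all tested genes, 17.6% were called lower and 15.2% higher at the adjusted p, and 21.8% and 20.1% at the unadjusted p. The part of cell composition in the channel values was not tested.

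**Figure D2:**
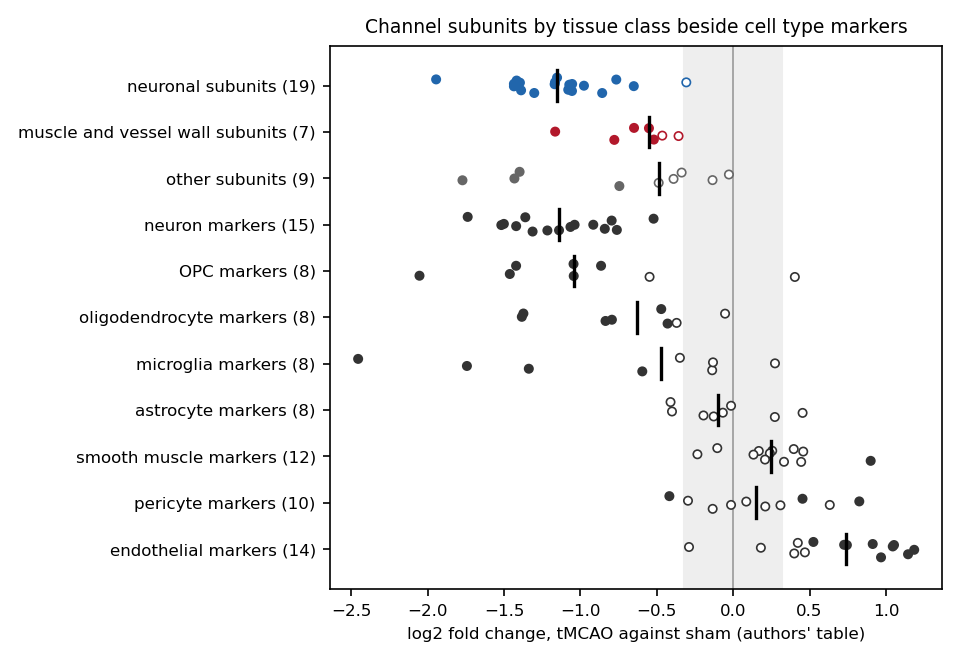
Log2 fold change of tMCAO against sham for the tested members by tissue class and for cell type marker lists, with the number of tested genes in brackets (OPC, oligodendrocyte precursor cell). Each point is a gene, filled where its adjusted p was under 0.05, black bars are medians, and the grey band holds the middle 50% of all tested genes; the neuronal subunits lie from -1.94 to -0.31 and the neuron markers from -1.74 to -0.52, and the smooth muscle markers lie from -0.23 to 0.90.

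Set against the neuron markers, the neuronal subunits were centred near 0. With the median of the neuron markers, -1.14, taken as the zero point, the median of the neuronal members was -0.013 and that of the muscle and vessel wall members 0.59. On that scale Scn4b was the single member called lower, at -0.80 (adjusted p = 0.0053, Benjamini-Hochberg over all tested genes from the implied standard errors), beside 0.187% of all tested genes. The zero point was treated as free of error, although the 15 markers behind it range from -1.74 to -0.52. That p therefore cannot show whether Scn4b fell further than neuron markers do. The members called higher numbered 12 of 35, beside 86.6% of all tested genes. Scn10a stood at -0.63 on that scale (adjusted p = 0.12). Ribosomal protein genes moved the other way, 77 of 81 higher with a median of 0.90, and with that value as the zero point all 35 tested members were called lower, beside 78.0% of all tested genes called lower and 1.71% higher.

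Many members are long genes. The tested members spanned 11.5 to 817 kb, with a median of 111 kb, against a median of 18.2 kb for all tested genes with a length. Across all genes the log2 fold change was lower in the longest genes, with a fitted value of -0.61 at the length of Cacna2d3, the longest member. Once this trend was subtracted, 22 of the 35 tested members were called lower, beside 16.4% of all tested genes, with 15.3% called higher. Cacna1c then had a log2 value of -0.13 (adjusted p = 0.69) and Cacnb2 one of -0.13 (adjusted p = 0.68), and the calls of Cacna1a, Cacna1e and Cacna2d3 ended as well, at -0.50, -0.51 and -0.56 (adjusted p = 0.074, 0.093 and 0.082). The sodium channel genes kept all 8 of their calls, among them the short genes Scn2b, Scn3b and Scn4b, which span 12.3 to 22.4 kb.

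In all, 7 groups of members lie within 1 Mb of each other on a chromosome (GENCODE M21 annotation of GRCm38). Neighbours did not always share a call, and the differences between neighbours were not tested. On chromosome 2, between 65457118 and 66784914, lie Scn3a, Scn2a1, Scn1a, Scn9a and Scn7a in that order. Their log2 fold changes were -1.07, -1.39, -1.40, -0.49 and -0.14 in the authors' deposited table, so the first 3 genes fell and the last 2 were not called. On chromosome 9, between 119608456 and 119825456, Scn10a at -1.77 lies beside Scn11a at 0.20, which has no adjusted p. Scn2b and Scn4b, at -1.44 and -1.94, are direct neighbours between 45117782 and 45154152 on the same chromosome. On chromosome 11, between 107703218 and 107915055, the muscle gene Cacng1, at -0.21 without an adjusted p, lies beside Cacng4 and Cacng5, at -1.43 and -1.40. On chromosome 7, between 3332955 and 3435667, Cacng7, Cacng8 and Cacng6, in that order, had log2 fold changes of -0.65, -1.08 and -0.46 in the authors' deposited table. The other groups are Cacna2d3 with Cacna1d on chromosome 14, between 28904943 and 30491455, and Cacna1c with Cacna2d4 on chromosome 6, between 118587240 and 119352407, and in each of these pairs the first gene fell and the second was not called.

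**Figure D3:**
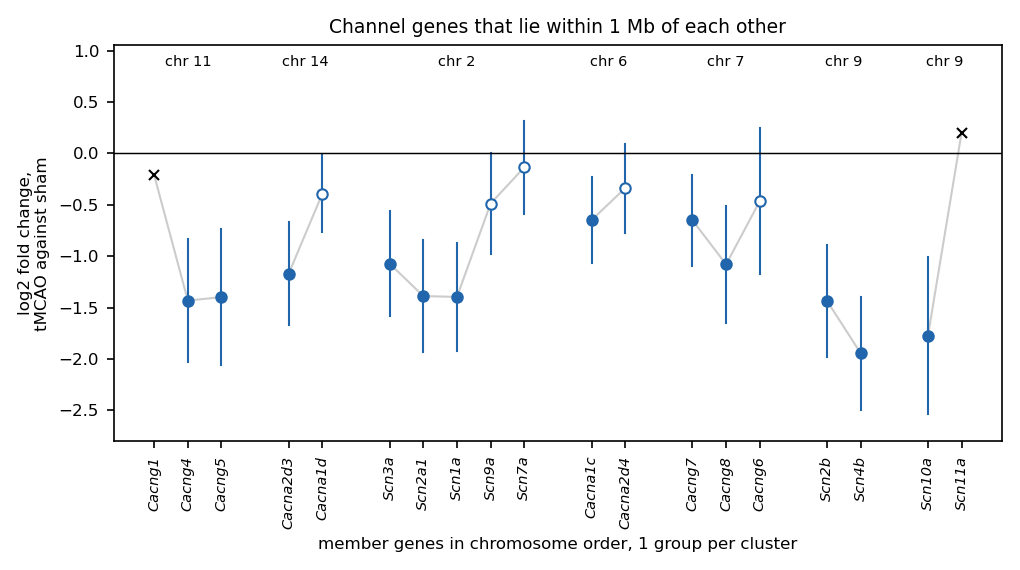
Log2 fold change of tMCAO against sham for members that lie within 1 Mb of another member, in chromosome order, with grey lines joining neighbours. Bars are 95% intervals, filled points were called lower, open points were not called and crosses have no adjusted p; on chromosome 2 the values run from -1.07 for Scn3a to -0.14 for Scn7a.

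Some members share identical stretches, and a read that lies wholly within such a stretch matches more than 1 gene. Of all 50-base windows in the transcripts of each member, at most 6.49% (in Scn3a) also occur in transcripts of another gene. In Scn9a 4.04% are shared with Scn1a, Scn2a1 and Scn3a. The sources used here do not state how reads that match several genes were assigned.

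The sequence before the start of the gene is shown for members that differ in call or in tissue class. They include the chromosome 2 neighbours Scn1a, which fell, and Scn9a, which was not called. The others are the alpha2delta genes Cacna2d3, a neuronal member, and Cacna2d1, a muscle and vessel wall member, whose falls were nearly equal. The sequences are from RefSeq (GRCm38.p6), printed 5′ to 3′ on the strand of the gene and ended before the first base of the GENCODE gene, and capitals mark each CG dinucleotide. They lie at chr2:66440841-66441087 and chr2:66634963-66635212 on the minus strand for Scn1a and Scn9a, at chr14:29721865-29722114 on the minus strand for Cacna2d3 and at chr5:15934441-15934690 on the plus strand for Cacna2d1.
Scn1a: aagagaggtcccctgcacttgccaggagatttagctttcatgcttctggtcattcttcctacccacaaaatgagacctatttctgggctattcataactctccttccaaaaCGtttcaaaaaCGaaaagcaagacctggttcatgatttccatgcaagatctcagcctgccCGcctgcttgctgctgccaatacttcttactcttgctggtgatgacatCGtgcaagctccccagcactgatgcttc
Scn9a: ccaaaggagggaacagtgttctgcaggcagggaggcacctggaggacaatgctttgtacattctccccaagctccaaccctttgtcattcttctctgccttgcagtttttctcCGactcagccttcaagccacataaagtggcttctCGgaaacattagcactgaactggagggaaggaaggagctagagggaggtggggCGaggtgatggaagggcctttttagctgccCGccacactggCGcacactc
Cacna2d3: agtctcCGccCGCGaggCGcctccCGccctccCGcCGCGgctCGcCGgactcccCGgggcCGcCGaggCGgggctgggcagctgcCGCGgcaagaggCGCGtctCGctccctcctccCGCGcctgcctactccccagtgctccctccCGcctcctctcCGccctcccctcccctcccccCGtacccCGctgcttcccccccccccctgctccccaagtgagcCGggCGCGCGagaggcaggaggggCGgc
Cacna2d1: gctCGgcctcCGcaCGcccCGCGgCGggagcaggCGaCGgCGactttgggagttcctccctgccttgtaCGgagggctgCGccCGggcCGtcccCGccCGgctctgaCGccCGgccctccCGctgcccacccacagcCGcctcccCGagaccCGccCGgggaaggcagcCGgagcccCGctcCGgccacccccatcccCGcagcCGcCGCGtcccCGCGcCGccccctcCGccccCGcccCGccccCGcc

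The sodium channel pair holds few CG dinucleotides, 4 in the 247 bases of Scn1a and 5 in the 250 bases of Scn9a, near the median of 6 over all windows. Both alpha2delta sequences are rich in them, with 30 for Cacna2d3 and 36 for Cacna2d1, and a G and C content of 80.0% and 82.4%. RefSeq start regions were matched for 30 of the 38 members, 41 windows of 250 bases in all, with 0 to 50 CG dinucleotides. The median of the 41 windows was 8, against 6 over all 32851 windows of the table. For 35 of the 41, bases just after the start were found in a GENCODE transcript of the same gene.

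Short motifs were searched on both strands of these windows, each by itself, so that matches of different motifs may overlap. The GC box, GGGCGG, was found before 15 of the 30 members and before 35.4% of all genes. The TATA box, TATAAA, was found before Cacna1d and Scn2a1 (6.67%, against 14.3% of all genes), and TGACG, the core of the cyclic AMP response element, before 6 members (20.0%, against 19.8%). Of the cores of RE1, the element bound by the neuronal gene repressor REST, CAGCACC was found before 0 members (6.56% of all genes) and GGACAGC before Cacnb1 (6.14% of all genes). The CArG box of smooth muscle genes was found before 0 members (1.62% of all genes) and the MEF2 site before 0 members (0.592% of all genes). A match is a run of letters and not a shown binding site. The search covered only the 250 bases before each start, so sites elsewhere in or around the genes were not looked for. The GC box of Cacng7 and the TGACG of Scn10a lie in windows without the transcript match described above.

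Genes that work with these channels were also mostly lower. Of 46 partner symbols listed, which include an older and a newer name for some genes, 43 were tested. Of these 30 fell and 2 rose, beside 17.6% and 15.2% of all tested genes, with a median log2 fold change of -0.68. All 4 fibroblast growth factor homologous factors, which bind the tail of sodium channel alpha subunits, fell. Fgf13 stood at -1.26 (adjusted p = 3.85e-07), Fgf12 at -1.35, Fgf14 at -1.07 and Fgf11 at -0.54 in the authors' deposited table. The tested genes of the sodium leak channel complex fell in 4 of 4, with the pore gene Nalcn at -1.17 (adjusted p = 2.48e-08), Unc80 at -0.93, Fam155a at -0.91 and Unc79 at -0.79 in the authors' deposited table. Of 8 genes that anchor channels on axons, 7 fell, from Tnr at -1.21, Cntn1 at -1.17 and Cntn2 at -0.96 to Ank3, the organiser of the axon initial segment, at -0.74, Sptbn4 at -0.56, Nrcam at -0.46 and Ank2 at -0.36 in the authors' deposited table.

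Partners of the calcium channels were divided. The shares of all tested genes were 17.6% called lower and 15.2% called higher. Presynaptic proteins that tether calcium channels to release sites fell in 4 of 5 genes, Bsn at -0.89 and Rims1, Rims2 and Erc2 each at -0.72 in the authors' deposited table. Among calcium sensors and adaptors of L-type channels 4 of 8 fell: Akap5, a postsynaptic anchor of protein kinase A, at -1.46, Cabp1 at -0.73, and the calmodulin genes Calm2 and Calm3 at -0.50 and -0.45 in the authors' deposited table. Akap12, another anchor of protein kinase A, rose 3.26-fold in the authors' deposited table (1.70 on the log2 scale, standard error 0.40, adjusted p = 0.000288). Of the RGK GTPases, which inhibit high-voltage-activated calcium channels, Gem rose by 1.04 (adjusted p = 0.0096) and Rem2, at -0.90 (adjusted p = 0.024), fell, while Rrad at 0.21 and Rem1 at 0.10 were not called. The neuronal junctophilins Jph3 and Jph4, which hold the endoplasmic reticulum close to the cell surface, fell (-1.21 and -0.998), and Jph1 and Jph2, of skeletal and heart muscle, did not pass, at -0.41 and 0.24 in the authors' deposited table. Calcium release channel genes fell in 4 of 6, Ryr1 at -0.71, Ryr3 at -0.68, Ryr2 at -0.65 and Itpr1 at -0.43, whereas Itpr2 and Itpr3 had log2 fold changes of 0.12 and 0.39 (adjusted p = 0.76 and 0.33) in the authors' deposited table. After subtraction of the trend in gene length 18 partner genes were called lower and 2 higher, beside 16.4% and 15.3% of all tested genes.

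**Figure D4:**
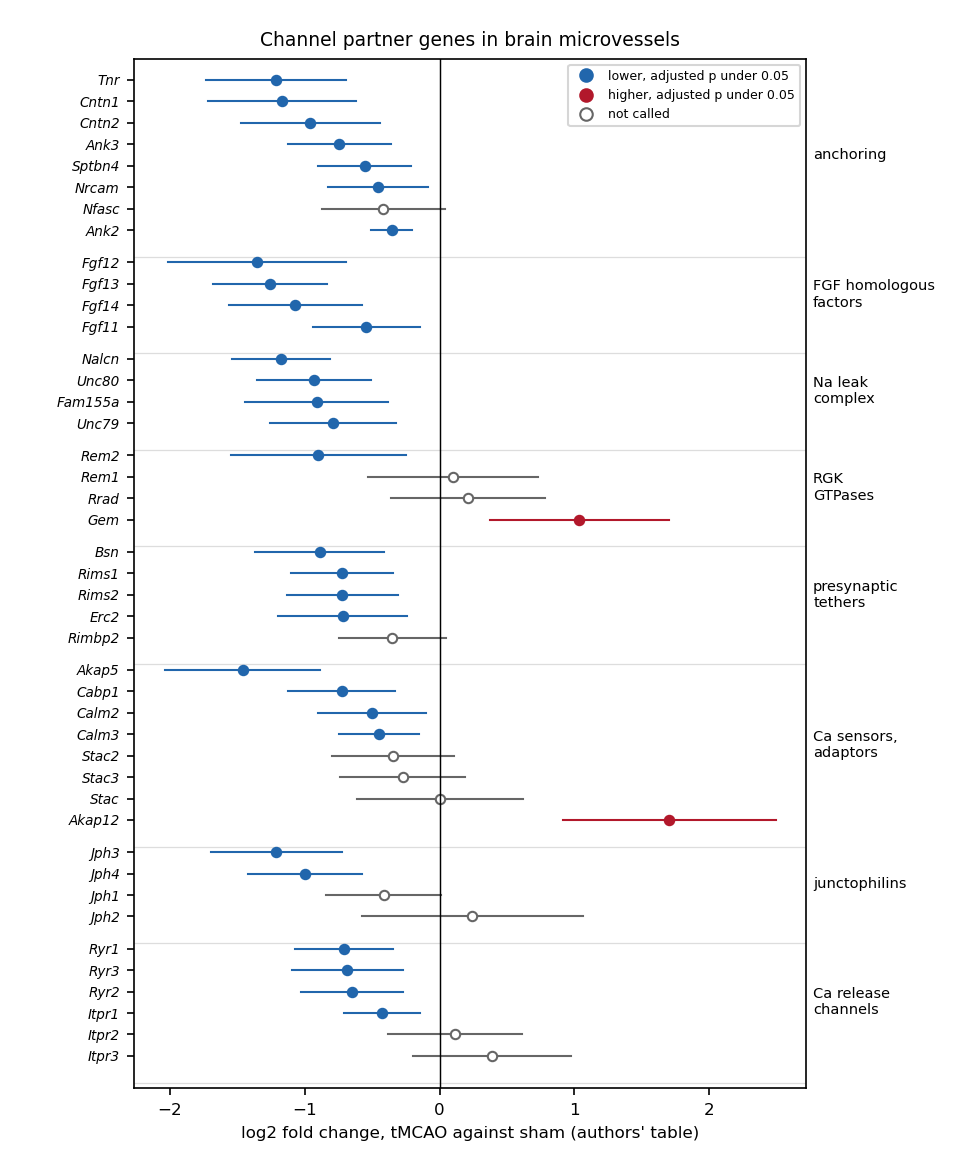
Log2 fold change of tMCAO against sham for the 43 tested channel partner genes, grouped by what their products do. Bars are 95% intervals from the implied standard errors, blue points were called lower, red points higher and open points were not called; Akap12 and Gem are the red points, at 1.70 and 1.04.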

How the data were processed

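Tools listed in the submitters' processing notes are bcl2fastq 2.19, DESeq2, HTSeq, STAR and cutadapt, and the listed builds are GRCm38 and mm10; roles and options are not stated. The deposited table of the authors holds a log2 fold change and a p-value for each gene, per the file headers. A fold change is given for 31616 genes and a p-value for 19294 of them. The p-value was taken as adjusted, since 3214 of its values each belong to more than 1 gene. Whether the fold changes were shrunken towards 0 is not stated; if so, folds, implied standard errors and intervals are too small.

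A call is an adjusted p of the authors under 0.05. The unadjusted p is the adjusted p times its last rank over the number of tests, and the implied standard error is the log2 fold change over the normal deviate of that p (Python 3.11.15, scipy 1.17.1). The 95% intervals follow from that standard error and are not adjusted for the number of genes. The arithmetic was tested on simulated data. Gene spans came from GENCODE M21, and the length trend is a lowess fit (statsmodels 0.14.6, fraction 0.3) over 19225 genes. Alternatives were other thresholds, zero points taken from other genes, the length trend and the p-value read as unadjusted. The members and lists were chosen with earlier results of these data known. A few channel and partner genes that meet the rules are not reported here. Every member described was named, partner genes where called and of each marker list those with the smallest adjusted p; Rrad, Rem1, Jph1, Jph2, Itpr2 and Itpr3, the markers at the ends of a range and Cspg4 were named after their values were seen.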

Additional observations from a re-analysis of the deposited data

How the results depend on the processing

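No paired analysis was possible because the groups share no replicate number and no values per library were analysed, so leaving out replicates was not run either. The count of members called lower was 18 to 35 of 35 under every setting but the neuron marker centring. Taking 0.01 as the threshold left 2 of 7 muscle and vessel wall members called lower, beside 12.1% of all tested genes. Asking for a change of at least 1 in log2 size left 1 of these members and 8 of 43 partner genes, beside 4.94% of all tested genes. The length trend left 18 partner genes and 3 muscle and vessel wall members called lower, beside 16.4% of all tested genes, and brought Cacna1d to 0.047. If the deposited p is unadjusted, 24 members are called, without Cacng7, Cacnb2 and Cacna1h, beside 12.4% of all tested genes called lower. Of these members 3 are of muscle and vessel wall. Centred on the best measured genes Cacna1h is lost. Centred on ribosomal protein genes (0.90), which rose themselves, the medians were -2.06 for the neuronal and -1.46 for the muscle and vessel wall members, all 35 tested members were called lower, beside 78.0% of all tested genes, and 0 partner genes higher.

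Centred on the neuron markers, 1 member was called lower and 12 higher: of the neuronal members 1 and 2, of the muscle and vessel wall members 0 and 4, and of the partner genes 0 and 26, beside 0.187% of all tested genes called lower and 86.6% higher. The medians became -0.013 and 0.59. By the construction of that scale, members less negative than the median neuron marker turned positive. The L-type genes Cacna1c, Cacna1d, Cacna1s and Cacna1f came to 0.49, 0.75, 0.78 and 1.11, Cacna1e, Cacna1b and Cacna1a to 0.16, 0.28 and 0.37, Cacna1h and Cacna1g to 0.59 and 0.83. Cacna2d2 and Cacna2d4 came to 0.085 and 0.80, Cacnb4, Cacnb1, Cacnb3 and Cacnb2 to 0.086, 0.36, 0.39 and 0.62, Cacng8, Cacng7 and Cacng6 to 0.060, 0.49 and 0.68, and Scn3a, Scn9a and Scn7a to 0.067, 0.65 and 1.00. Without counts, depth limits could not be given.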
